A study of Homo sapiens with 2 samples.

Results

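The ERBB family comprises 4 receptor tyrosine kinase genes, EGFR, ERBB2, ERBB3 and ERBB4, and chromatin accessibility at these loci was described in CAMA-1, an estrogen receptor-positive human breast adenocarcinoma cell line. The assay was ATAC-seq, which reads open chromatin from the places where the Tn5 enzyme can cut DNA and attach adapters. Nuclei came from 2 biological replicates of 50000 untreated, adherent cells each, grown in medium with serum and antibiotics, and both replicates form a single condition. With no second condition and n = 2, no difference could be tested, so the values are descriptions, with each replicate given and the mean ± SD over both.

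A locus was the GENCODE release 44 gene body with 50 kb on either side, on hg38. A region was a run of overlapping peaks (at least 1 bp) called in both replicates, and 174 of the 215195 regions in the series lay in the 4 loci. The loci held 204 of 245736 peaks in replicate 1 and 206 of 259745 peaks in replicate 2. Of these, 179 and 176 overlapped a peak of the other replicate and formed the regions. Each peak carries a fold enrichment, the pileup of reads at its highest base over the background of the peak caller, and a region was given its strongest peak in each replicate. Values below are fold enrichments unless stated otherwise, with replicate 1 first.

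ERBB receptors are single-pass membrane proteins that pair with each other when a ligand binds the extracellular domain, and the paired kinase domains then phosphorylate tails that recruit adaptors of the MAPK and PI3K pathways. EGFR binds epidermal growth factor and related ligands, ERBB3 and ERBB4 bind neuregulins, ERBB2 has no known ligand and acts as a pairing partner, and ERBB3 has little kinase activity of its own. In breast epithelium, ERBB2 is the gene amplified in HER2-positive cancer, and ERBB3 is its usual partner. ATAC-seq peaks at a transcription start site (TSS) mark the nucleosome-depleted promoter, and those in introns include enhancers.

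Bases from promoters or introns of the 4 genes are shown first, and their part in the contrast between the genes was not tested. The EGFR promoter is shown because no peak was called there. It holds the 250 bases before the canonical TSS on the plus strand (chr7:55018767-55019016, RefSeq promoter table, GRCh38.p14), outside the transcript, and capitals mark matches to the words searched, here GGGCGG (GC box, on the opposite strand) and GCCNNNGGC (AP-2).
EGFR promoter: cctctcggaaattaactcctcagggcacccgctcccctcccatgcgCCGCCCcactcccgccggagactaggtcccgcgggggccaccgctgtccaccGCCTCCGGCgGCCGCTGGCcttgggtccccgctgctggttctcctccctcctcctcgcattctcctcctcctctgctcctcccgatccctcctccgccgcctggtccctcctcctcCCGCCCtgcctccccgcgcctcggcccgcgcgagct
The ERBB4 promoter is shown as its accessible counterpart. These 200 bases end before the most 5′ TSS on the minus strand (chr2:212538842-212539041, RefSeq promoter table, GRCh38.p14), and capitals mark 1 GC box on the opposite strand.
ERBB4 promoter: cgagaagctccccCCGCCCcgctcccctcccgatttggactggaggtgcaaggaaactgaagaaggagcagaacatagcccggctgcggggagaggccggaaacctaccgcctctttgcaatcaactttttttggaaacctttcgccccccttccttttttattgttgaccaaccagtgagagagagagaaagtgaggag
The ERBB2 bases lie in the strongest region of that gene, in intron 1, directly before an internal TSS (chr17:39702994-39703193, plus strand, hg38), and capitals mark 1 CCAAT box.
ERBB2 intron 1: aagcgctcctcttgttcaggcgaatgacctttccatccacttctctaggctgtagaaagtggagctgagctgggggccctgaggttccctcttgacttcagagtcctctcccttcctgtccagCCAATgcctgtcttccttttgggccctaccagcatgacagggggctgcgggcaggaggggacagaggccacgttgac
For the other genes, bases are given about the midpoint of the strongest region that lay in an intron outside the main promoter. They are on the strand of the gene, in hg38. In EGFR it was in intron 20 (chr7:55186207-55186406), with 1 CCAAT box in capitals.
EGFR intron 20: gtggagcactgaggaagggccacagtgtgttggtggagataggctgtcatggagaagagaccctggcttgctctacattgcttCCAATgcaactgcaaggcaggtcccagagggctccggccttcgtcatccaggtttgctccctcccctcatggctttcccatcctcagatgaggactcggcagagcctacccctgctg
In ERBB3 it was in intron 3 (chr12:56086262-56086461), with capitals for 1 AP-1 word (TGANTCA), 1 TATA box (TATAAA) and 1 CCAAT box on the opposite strand. This ERBB3 region also holds an internal TSS of the gene, at 56086519, and is counted below as a TSS region, not an intronic one.
ERBB3 intron 3: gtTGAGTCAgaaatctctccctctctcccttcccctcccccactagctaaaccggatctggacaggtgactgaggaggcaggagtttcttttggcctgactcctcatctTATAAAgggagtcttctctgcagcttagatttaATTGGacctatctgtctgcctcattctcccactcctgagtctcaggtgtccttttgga
In ERBB4 it was in intron 20 (chr2:211435310-211435509), with 1 GATA word (AGATAA) and 1 CCAAT box.
ERBB4 intron 20: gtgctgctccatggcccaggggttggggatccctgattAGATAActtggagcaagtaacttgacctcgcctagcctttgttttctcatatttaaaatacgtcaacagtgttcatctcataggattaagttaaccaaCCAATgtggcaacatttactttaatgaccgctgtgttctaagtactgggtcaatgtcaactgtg
The promoter table matched 3 of the 4 genes, all but ERBB3. None of the printed bases is untranslated region in GENCODE.

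**Figure D1:**
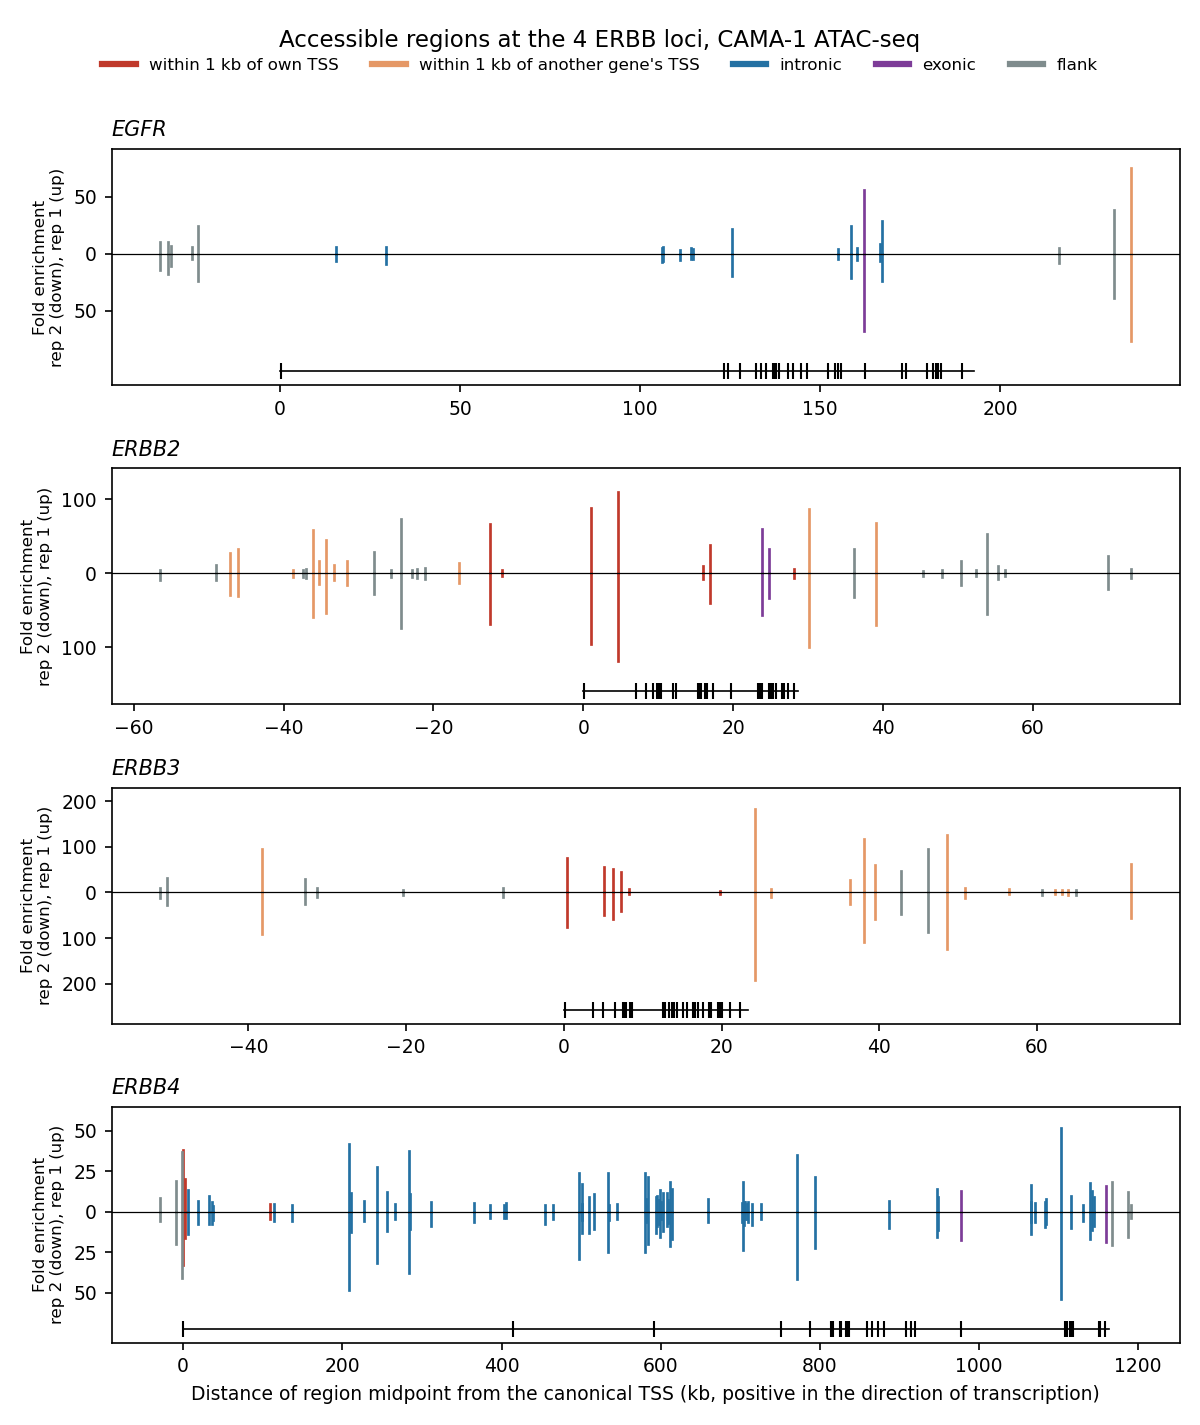
Regions at the 4 loci by distance of the midpoint from the canonical TSS (kb) and fold enrichment, with replicate 1 up and replicate 2 down; colours give the class of region, the black line the canonical transcript and ticks its exons (not to width). EGFR has no bar at its start, ERBB2 and ERBB3 have their strongest own bars within the first 10 kb, and bars are spread through the ERBB4 gene.

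ERBB2, ERBB3 and ERBB4 had a peak within 1 kb of an annotated TSS of their own in both replicates, 3 of the 4 family members, and EGFR had none in either. The share over 20033 protein-coding genes was 79.3%. ERBB2 was highest at 110 and 118 (114 ± 5.73, n = 2), ERBB3 followed at 75.0 and 76.3 (75.6 ± 0.904), and ERBB4 was lowest at 38.2 and 32.7 (35.5 ± 3.87). The ranges of the replicates did not overlap between these genes. Against all protein-coding genes that had such a peak, whose medians were 51.8 and 53.3, ERBB2 stood at percentiles 87.8 and 89.6, ERBB3 at 70.0 and 69.4, and ERBB4 at 36.2 and 29.2. The median fold enrichment of all regions within 5 Mb of each gene, given because copy number, mappability and accessibility cannot be told apart in a peak list, was 10.1 and 10.6 for EGFR, 11.5 and 11.7 for ERBB2, 11.3 and 11.5 for ERBB3, and 9.20 and 9.51 for ERBB4. A median over so wide a window does not show a change confined to a single gene, and the part of copy number in the TSS values was not tested. Nor can a site open in fewer cells and a site less open in every cell be told apart in bulk cells.

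EGFR (ENSG00000146648.21, chromosome 7, 55019017 to 55211628, plus strand) encodes the receptor of epidermal growth factor, and its 12 annotated TSSs all lacked a peak within 1 kb in both replicates. From the canonical TSS the distance to the nearest peak was 15424 bp in replicate 1 and 15328 bp in the other, and this peak was weak at 5.75 and 6.41. Only called peaks are listed, so the absence means that no peak passed the caller there, and the lowest height listed was 11 stacked reads in each replicate. The 250 bases printed above were 73.6% G and C with 25 CpG dinucleotides, an observed to expected ratio of 0.881, which placed them at percentile 86.9 for GC content and 79.4 for the CpG ratio among 35116 RefSeq promoters. Of 3211 other promoters within 5 percentage points of that GC content and 0.1 of that CpG ratio, 89.8% had a peak within 1 kb in both replicates. Among 3254 protein-coding genes within a factor of 2 of the length of EGFR, 88.4% had a TSS peak in both.

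Accessible regions at the EGFR locus lay instead inside the gene and beyond its ends. Of 22 regions, 13 were intronic, 1 was exonic, 5 lay upstream, 2 lay downstream, and 1 was at the TSS of another gene. The strongest within the gene had its midpoint in exon 20, which codes for part of the kinase domain (55180992 to 55181669), and stood at 55.9 and 67.4, with a height of 242 stacked reads (212 to 274) in replicate 1 and 304 (271 to 340) in replicate 2 (exact Poisson 95% intervals, which cover counting error only). Intron 20 held the next strongest (55186023 to 55186590, the EGFR intron 20 bases above) at 28.8 and 24.1. One in intron 19 reached 24.2 and 21.4, and one in intron 3 reached 21.4 and 19.2. These were the 3 intronic regions of EGFR whose mean exceeded 20, and the other 10 stayed below 10. The longest intron, intron 1 (123 kb), held 7 of the 13, with medians of only 5.52 and 5.97, and a stretch of 74.4 kb within it held no peak in either replicate.

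Outside the gene, the strongest region of the EGFR locus lay at the TSS of ELDR, a long non-coding RNA gene downstream of EGFR (55254584 to 55256242), at 75.5 and 76.7. Another downstream (55250266 to 55250769) stood at 38.2 and 38.9, and the strongest upstream (54996031 to 54996346) at 24.6 and 23.9. EGFR thus had 14 intragenic regions over 1 kb from any TSS. Of the 3726 protein-coding genes with no TSS peak in either replicate, 76 (2.04%) had as many or more. Gene length enters this count, and EGFR is longer than 92.1% of protein-coding genes.

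ERBB2 (ENSG00000141736.14, chromosome 17, 39687914 to 39730426, plus strand), which encodes HER2, had a series of strong regions over its first 20 kb. The upstream promoter (39686754 to 39688498), which holds TSSs of both ERBB2 and PGAP3, a gene for remodelling of lipid anchors, stood at 66.5 and 69.2. The region at the canonical TSS (39699719 to 39702352) reached 87.9 and 95.7. It was split into 2 peaks in replicate 1, and the peak over the canonical TSS itself stood at 68.6. The strongest region followed in intron 1 (39702556 to 39706741) at 110 and 118, with heights of 477 (435 to 522) and 533 (489 to 580). This region was 4186 bp wide, the widest of the 174, and holds an internal TSS. The files give no summit, so the position of its highest base is not known. With the upstream promoter alone, ERBB2 would stand at 67.9 ± 1.92, below the 75.6 of ERBB3, which was taken over all its TSSs. With only the most 5′ TSS of each gene, ERBB3 had no TSS peak to set beside this value.

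Further into ERBB2, an internal TSS in intron 14 had a region at 38.2 and 40.2 (39716706 to 39717305). Regions with midpoints in exon 19 (39723397 to 39724428) and exon 20 (39724521 to 39725105) reached 59.4 and 56.6, and 32.2 and 34.1. These exons code for the kinase domain and were over 1 kb from any TSS. Of the 21 annotated TSSs of ERBB2, 11 lay under a peak in both replicates and 18 within 1 kb of one. Many of these TSSs share a region, so they are not separate sites, and no share over all annotated TSSs is given here. Peaks covered 27.5% of the gene body in replicate 1 and 27.4% in replicate 2, against 2.73% and 2.96% in EGFR. The lengths of these genes differ, at 42.5 kb for ERBB2 and 193 kb for EGFR.

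Neighbours of ERBB2 were accessible as well. GRB7, an adaptor that binds ERBB receptors, and MIEN1, a gene linked to cell migration, are often amplified together with ERBB2 in HER2-positive cancer. The MIEN1 TSS region at the 3′ end of ERBB2 reached 87.2 and 99.9, and the GRB7 TSS region reached 67.4 and 69.7. STARD3, a lysosomal cholesterol transporter, had up to 32.2 and 31.0. TCAP, a sarcomere protein gene, had up to 58.7 and 59.7, and PNMT, the gene of the enzyme that makes adrenaline, had 16.6 and 16.4 at its TSS. Away from any TSS, regions upstream (39674821 to 39676615) and downstream (39753238 to 39754780) of the gene stood at 73.6 and 73.6, and at 52.9 and 54.8.

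ERBB3 (ENSG00000065361.17, chromosome 12, 56076799 to 56103505, plus strand), the neuregulin receptor with little kinase activity, was accessible at its promoter and over the introns that follow. The promoter region (56078730 to 56082366) was 3637 bp wide and had heights of 325 (291 to 362) and 344 (309 to 382). Intron 3 held a pair of regions. The first (56084998 to 56085559) stood at 55.9 and 48.6, the second (56085947 to 56086775, the ERBB3 intron 3 bases above) at 51.1 and 57.1. A region in intron 4 (56087036 to 56087869) stood at 44.9 and 41.6. By the 1 kb rule these counted as TSS regions, since ERBB3 has 32 annotated TSSs. The first lay 960 bp from the nearest, just inside the limit, and the second holds a TSS. A weak region in intron 7 (56088320 to 56088531), also within 1 kb of a TSS, stood at 7.36 and 3.98. After it, a stretch of 11.4 kb held no peak in either replicate. The last region with its midpoint in the gene, in exon 25, stood at 3.68 and 4.42.

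The strongest region of all 4 loci lay at the TSS of PA2G4, which encodes an ERBB3-binding protein, directly downstream of ERBB3 (56103342 to 56105515). It reached 182 and 191, with heights of 791 (737 to 848) and 864 (807 to 924). Regions at the TSSs of ESYT1, a gene for membrane contact sites, stood at up to 125 and 123. The TSS region shared by ESYT1, RPL41, a ribosomal protein gene, and ZC3H10, an RNA-binding protein gene, stood at 118 and 108. RPS26, another ribosomal protein gene, had 95.7 and 91.1, and MYL6B, a myosin light chain gene, had 63.0 and 56.6. The TSSs of ENSG00000257449, ENSG00000258345 and ENSG00000258317 fell within 1 kb of the RPS26 region, of a ZC3H10 region at 59.6 and 57.9, and of the strongest ESYT1 region.

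ERBB4 (ENSG00000178568.16, chromosome 2, 211375717 to 212538841, minus strand), a neuregulin receptor with full kinase activity, spans 1163 kb and held 83 of the 174 regions. The promoter region (212538437 to 212539744, the ERBB4 promoter bases above) had heights of 165 (141 to 192) and 147 (124 to 173). Another region 1539 bp upstream of the nearest TSS, just outside the 1 kb limit (212540380 to 212540729), was of similar strength at 36.6 and 40.9. A region just inside intron 1, 343 bp from a TSS, stood at 20.5 and 16.1, and the region at an internal TSS in intron 1 was weak at 4.83 and 4.64. Of 8 annotated TSSs, 2 lay under a peak in both replicates and 5 within 1 kb of one, and TSSs that share a region are counted separately here too.

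Intronic regions made up 72 of the 83 at ERBB4, and 2 of them exceeded the promoter region in both replicates. The highest lay in intron 20 (211435050 to 211435769, the ERBB4 intron 20 bases above), at 51.8 and 54.0 (52.9 ± 1.54). The other was in intron 1, at 41.6 and 48.2 (212330275 to 212330684). Near the level of the promoter were one in intron 1 at 37.7 and 37.6 (212254349 to 212255126) and one in intron 4 at 34.7 and 41.8 (211766687 to 211767194). In all, 11 of the 72 had a mean over 20 and 29 a mean over 10. Of ERBB2 and ERBB4, the members with both a TSS peak and an intragenic region over 1 kb from any TSS, ERBB4 was the gene whose strongest such region exceeded its TSS peak in both replicates. The share over 11682 protein-coding genes with both was 28.9%.

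The ERBB4 regions were unevenly spread, with 10 of 27 introns holding at least 1. Intron 1 (414 kb) held 22, intron 2 (177 kb) held 14, and intron 3 (159 kb) held 22, or 5.32, 7.90 and 13.8 per 100 kb. The densest 25 kb of the locus had 13 regions in intron 3, between 211923965 and 211944924. Their values spanned 4.83 to 18.4 (replicate 1) and 3.98 to 21.4 (replicate 2). The longest stretch of the gene with no peak in either replicate was 91.9 kb (211652632 to 211744556). The density of ERBB4 regions over 1 kb from any TSS was 6.36 per 100 kb, at percentile 84.5 among 232 protein-coding genes within a factor of 2 of its length, whose median was 3.05. EGFR, with 7.27 per 100 kb, stood at percentile 61.6 among genes of its length, where the median was 5.83.

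**Figure D2:**
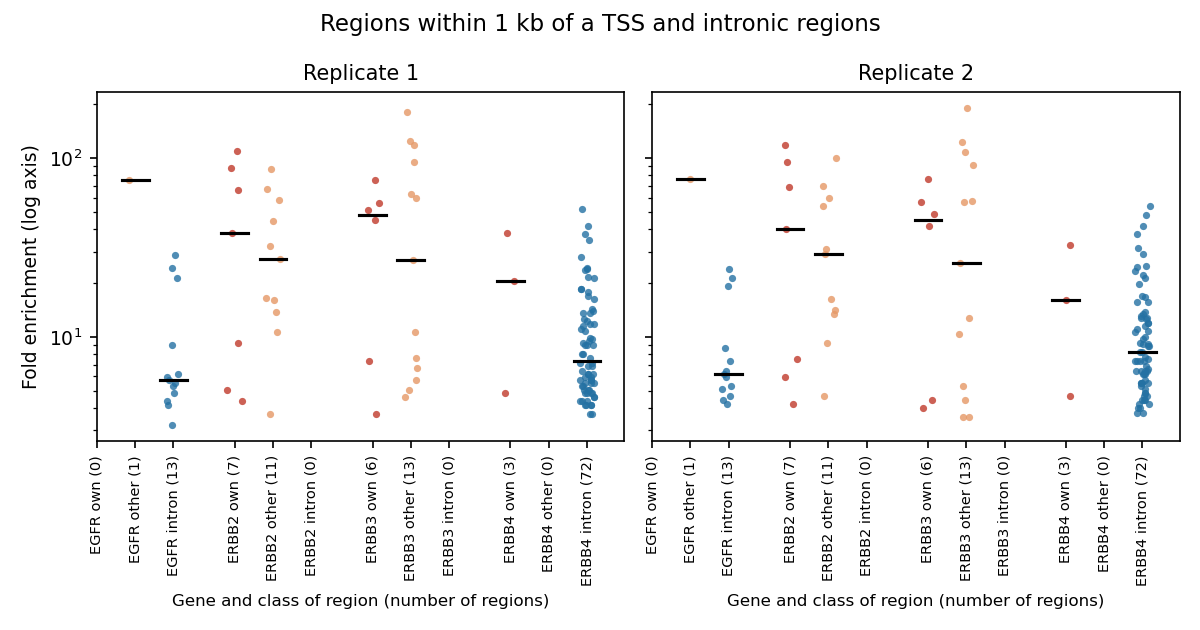
Fold enrichment (log axis) of regions within 1 kb of the gene's own TSSs, within 1 kb of another gene's TSS, and in introns, by gene and replicate, with bars at the medians and the number of regions in brackets. TSS regions span 3.68 to 182 in replicate 1, while most intronic regions of EGFR and ERBB4 lie below 10.

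Promoter and intronic regions were then compared over the loci. The 41 regions within 1 kb of any TSS (16 at TSSs of the family, 25 at those of neighbours) had medians of 32.2 and 31.0. The 85 intronic regions had medians of 6.90 and 7.52. The ratio of the medians was 4.67 in replicate 1 and 4.12 in replicate 2 (4.39 ± 0.388, n = 2). Its size depended on the definitions: it was 2.53 with the peaks of replicate 2 alone, 2.40 with a flank of 100 kb, 6.72 with a TSS distance of 100 bp, 7.79 with a single TSS per gene and 9.31 with −log10 q as the strength. Over the series, the ratio between 42902 TSS regions and 89458 intragenic regions of protein-coding genes, exonic ones included, was 1.87 and 1.83 (1.85 ± 0.0277). With the 5 exonic regions added to the intronic ones in the same way, the ratio at the loci was 4.37 and 3.78 (4.08 ± 0.418). The TSS regions were also wider, with a median of 829 bp against 304 bp.

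These pooled medians mix loci, since every intronic region came from EGFR (13) or ERBB4 (72), and ERBB2 and ERBB3 gave 37 of the 41 TSS regions but no intronic region. So many TSSs are annotated in ERBB2 and ERBB3 that each of their regions with a midpoint in an intron lay within 1 kb of one. Within ERBB4 alone, 3 TSS regions had medians of 20.5 and 16.1 against 7.36 and 8.18 for the intronic regions. That ratio was 2.78 and 1.97 (2.38 ± 0.572). The difference between promoter and intron was thus smaller within ERBB4 than over the pooled loci, and classes overlapped fully there, with intronic regions from 3.68 to 51.8 and TSS regions from 4.83 to 38.2 in replicate 1.

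In the 200 bases about the midpoint, TSS regions of the loci had a median GC content of 57.5% and 4 CpG dinucleotides, and intronic regions had 43.0% and 1. Over the series these medians were 57.0% and 5 for TSS regions and 49.0% and 2 for intragenic regions over 1 kb from any TSS. The genes differed in this. The 72 intronic regions of ERBB4 had a median GC content of 41.5%, and 27 (37.5%) held no CpG. The 13 of EGFR had 51.5%, and 2 (15.4%) held none, close to the 16.4% of intragenic regions of the series.

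Motif words were counted on both strands in the same 200 bases. FOX words (TGTTTAC or TATTTAC) were in 13 of the 85 intronic regions (15.3%), against 10.2% of intragenic regions of the series. GATA words (AGATAA or TGATAA) were in 16 (18.8% against 15.7%), TATA boxes in 14 (16.5% against 8.86%), and CCAAT boxes in 25 (29.4% against 22.9%). AP-1 words were in 8 (9.41% against 10.5%), and AP-2 words in 3 (3.53% against 10.4%). These pooled counts were mostly those of ERBB4, which held FOX words in 12 of 72, GATA words in 15 and TATA boxes in 13, while EGFR held each in 1 of 13. AP-1 words were in 3 of 13 for EGFR and 5 of 72 for ERBB4. The part of base composition in these shares was not tested. In the 41 TSS regions, GC boxes were in 9 (22.0% against 25.6% of TSS regions of the series) and ETS words (CCGGAAG) in 0 (4.07% of the series). E boxes (CACGTG) were in 3 of the 41 (7.32% against 4.18%). GATA words were in 0 (9.09% of the series), AP-2 words in 4 (9.76% against 17.4%) and FOX words in 2 (4.88% against 5.26%). AP-1 words were in 4 (9.76% against 6.83%), CCAAT boxes in 11 (26.8% against 20.4%) and TATA boxes in 1 (2.44% against 4.69%). The estrogen response element, in its full palindromic form, was in 0 of the 174 regions and in 139 of all 215195 (0.0646%). In the 250 bases before a TSS, the GC box and AP-2 words shown for EGFR were present in 42.6% and 19.8% of RefSeq promoters.

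**Figure D3:**
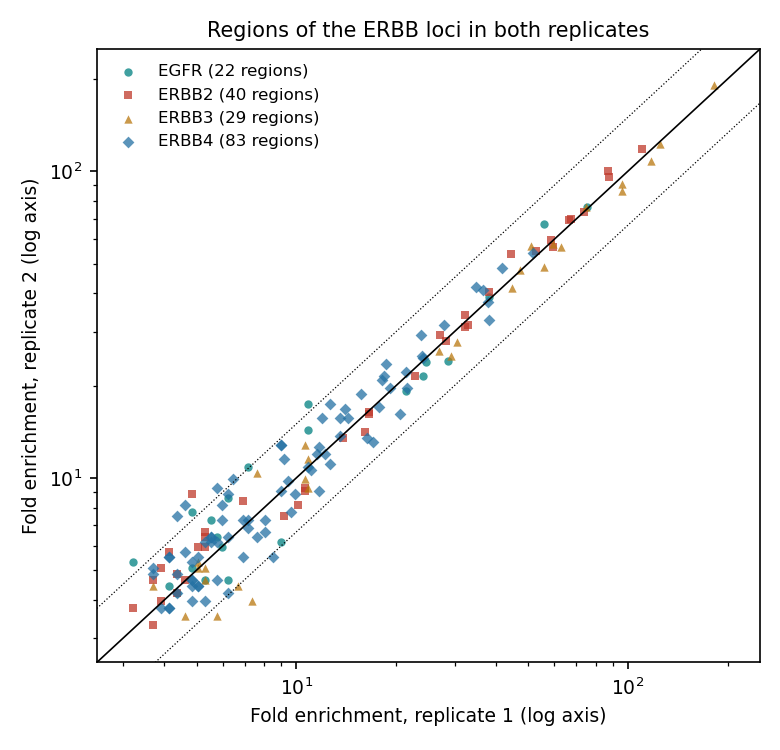
Fold enrichment of the 174 regions in replicate 1 against replicate 2 (log axes), by gene, with a solid line at equal values and dotted lines at 1.5-fold. Of these regions, 161 lie within 1.5-fold, and the 13 outside do not exceed 17.5 in either replicate.

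Replicates gave close values in the regions of these loci called in both. Of 204 peaks in replicate 1, 179 (87.7%, Wilson 95% interval 82.5 to 91.6%) overlapped a peak of replicate 2, beside 90.2% of all peaks. Of 206 peaks in replicate 2, 176 (85.4%, 80.0 to 89.6%) overlapped a peak of replicate 1, beside 84.7% of all. These intervals treat peaks as independent and do not cover the spread between replicates. Peaks found in 1 replicate only were weak, at most 5.52 in replicate 1 and 6.41 in replicate 2. Across the 174 regions, which share a library within each replicate, Spearman's rho was 0.946 and Pearson's r 0.994. Only regions with a peak in both replicates enter these values, and the same values over all regions of the series are not given here. The largest difference was 1.85-fold, and none of the 13 regions past 1.5-fold exceeded 17.5 in either replicate.

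**Figure D4:**
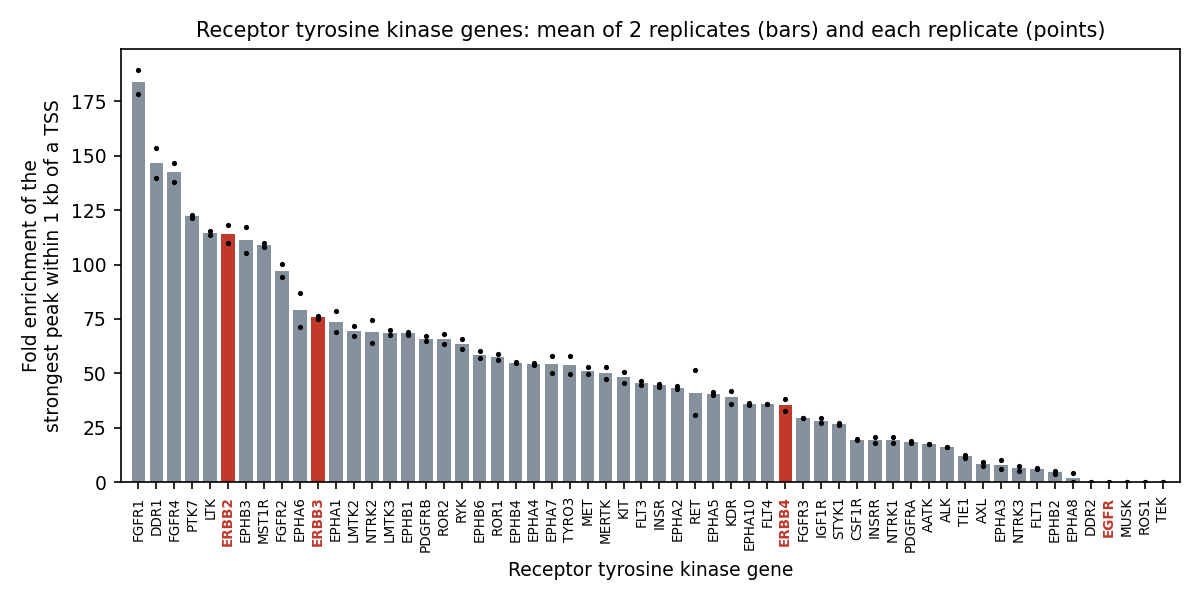
Fold enrichment of the strongest peak within 1 kb of a TSS for 58 receptor tyrosine kinase genes, with bars for the mean of both replicates, points for each, and 0 where no peak was called. ERBB2 ranks 6, ERBB3 11 and ERBB4 37 by the mean, and EGFR is at 0 with DDR2, MUSK, ROS1 and TEK.

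Among 58 receptor tyrosine kinase genes, 52 (89.7%) had a TSS peak in both replicates, beside 79.3% of protein-coding genes, with medians of 49.7 and 51.7. FGFR1, a fibroblast growth factor receptor, was highest at 178 and 190. DDR1, a collagen receptor, had 153 and 140, and FGFR4 had 138 and 147. ERBB2 ranked 6, between LTK at 114 and 115 and EPHB3 at 117 and 105, whose replicate ranges both overlapped that of ERBB2. ERBB3 ranked 11, next to EPHA6 at 71.3 and 86.7 and EPHA1 at 78.5 and 69.0, whose ranges both spanned that of ERBB3. ERBB4 ranked 37, next to FLT4 at 35.9 and 35.8, which lay within its range, and above FGFR3 at 29.2 and 29.6. The lowest with a peak in both were FLT1 (6.44 and 5.97) and EPHB2 (5.29 and 3.76). EGFR shared the lack of a TSS peak with MUSK, a receptor of the neuromuscular junction, TEK, the angiopoietin receptor, DDR2, a collagen receptor, and ROS1. EPHA8 had a peak in replicate 2 only, at 3.98.

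Likeness was measured as the Euclidean distance over the log2 TSS fold enrichment and log2 of (1 + peaks over 1 kb from any TSS per 100 kb of gene), each in both replicates, against 51 other receptor tyrosine kinase genes. Nearest to ERBB2 were DDR1 (distance 0.572) and EPHA6 (0.969). ERBB3 was nearest to EPHA7 (1.15) and FGFR4 (1.29), and ERBB4 to KIT, the stem cell factor receptor (0.715), and STYK1 (0.738). For ERBB3 the second measure rests on 0 peaks per 100 kb in both replicates, since all its intragenic regions lay within 1 kb of an annotated TSS. EGFR, with no TSS peak, could not be placed.

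Genes of the wider ERBB pathway were mostly accessible at their TSSs. Of 45 genes on the lists of ligands, shedding enzymes and chaperones, adaptors and effectors, and attenuators, 43 (95.6%) had a TSS peak in both replicates, beside 79.3% of protein-coding genes, and the medians were 56.4 and 57.7. A peak within 1 kb can belong to a neighbour with a nearby TSS.

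Of the 11 ligand genes, 9 (81.8%) had a TSS peak in both replicates, close to the share of all protein-coding genes. EREG, which encodes epiregulin, and NRG3, a neuregulin gene, had no TSS peak in either replicate. The highest was HBEGF, heparin-binding EGF-like growth factor, at 90.4 and 88.2. TGFA, transforming growth factor alpha, had 70.6 and 68.1, and BTC, betacellulin, had 41.6 and 49.1. NRG1, the main neuregulin gene, had 19.8 and 21.0, and EPGN, epigen, had 17.9 and 13.9, the lowest of those with a peak. All 5 shedding and chaperone genes had a peak. ADAM17 and ADAM10, proteases that release ligands from the membrane, stood at 95.7 and 115, and at 103 and 102. The chaperone genes HSP90AB1, CDC37 and HSP90AA1 stood at 77.3 and 82.0, at 49.2 and 50.0, and at 43.9 and 43.6.

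All 18 adaptor and effector genes had a TSS peak in both replicates. SHC1, an adaptor that binds phosphorylated ERBB tails, was the highest of the pathway at 260 and 232. GRB2, which links receptors to RAS, had 172 and 161, and the transcription factor gene STAT3 had 125 and 111. Its neighbours STAT5B and STAT5A were the lowest, at 15.0 and 17.7, and at 4.83 and 4.86. Each of the 11 attenuator genes had a peak as well. RNF41, a ubiquitin ligase that lowers ERBB3, was highest at 153 and 151. DUSP6, a phosphatase of ERK kinases, had 125 and 130, and CBLB, a ubiquitin ligase of activated receptors, had 124 and 135. Lowest were DUSP4 at 30.4 and 26.8 and CBL at 17.9 and 22.1.

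**Figure D5:**
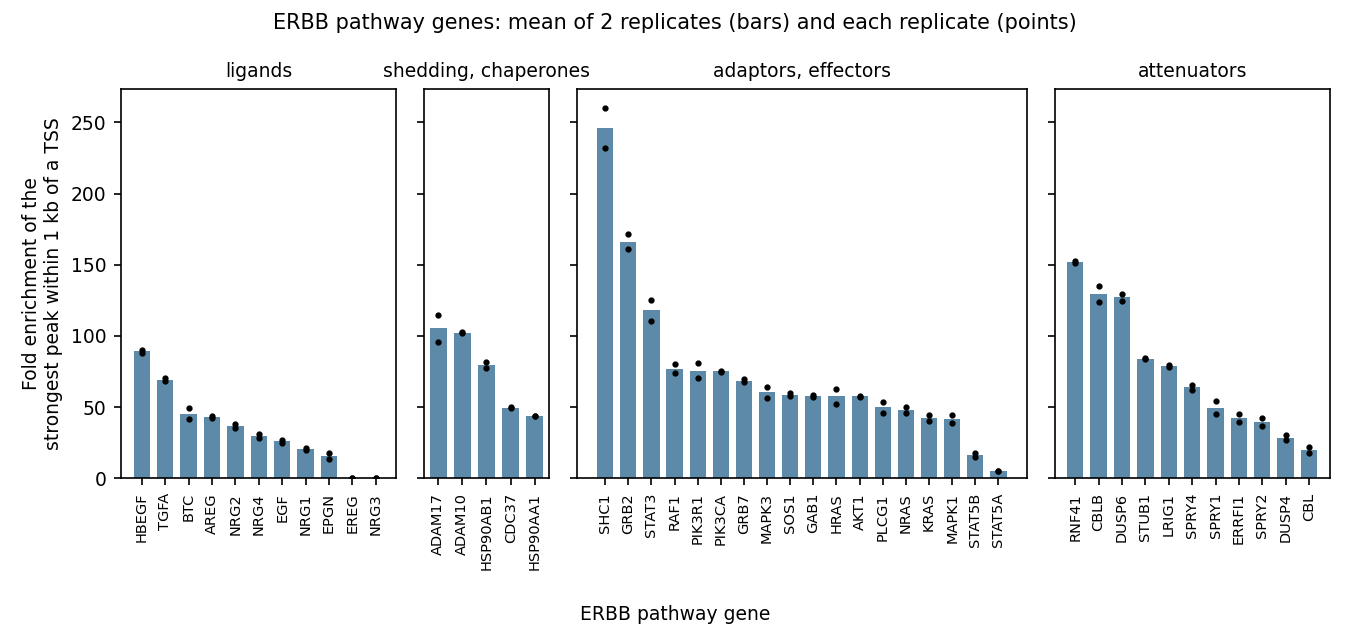
Fold enrichment of the strongest peak within 1 kb of a TSS for 45 ERBB pathway genes in 4 lists, with bars for the mean of both replicates and points for each. EREG and NRG3 are at 0, and SHC1 is highest with 260 and 232.

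Marker genes were read as a check of the labelled breast epithelial cells. All 8 luminal epithelial markers had a TSS peak in both replicates, with medians of 85.0 and 88.1, from KRT8, KRT18 and EPCAM at the top to TFF1 and ESR1 at the bottom (31.3 and 32.5). All 4 basal markers did too, but at medians of 8.05 and 8.07, KRT14 the highest and TP63 and KRT17 the lowest. Of the blood markers reported here, CD14 had a TSS peak at 47.9 and 52.6, and PTPRC, CD3E, SPI1 and HBB had none in either replicate. The 6 fibroblast markers all had one, with medians of 13.3 and 15.7, COL1A1, PDGFRB and COL1A2 the highest and DCN and FAP the lowest. COL1A1 (73.4 and 67.2) and PDGFRB (64.7 and 67.2) exceeded the luminal markers GATA3 (48.3 and 50.0), TFF1 and ESR1, but not the other luminal markers. The remaining fibroblast markers stood below every luminal one. The share over protein-coding genes was 79.3%, and presence of a peak did not separate luminal, basal and fibroblast markers.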

How the data were processed

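Per the submitters' processing notes, reads were trimmed with Trim Galore 0.6.5 and aligned to hg38 with Bowtie2 2.3.5.1, and peaks were called with MACS2 2.2.6 in each replicate, without pooling. The MACS2 settings and the handling of duplicate reads are not given in the sources used here. For every peak the authors deposited 4 values, namely the fold enrichment as a ratio over the caller's background, −log10 p-value, −log10 q-value and a score made from the q-value. The fold enrichments were whole multiples of 1 step in each replicate. They were read as (height + 1) / (background + 1), and the height of a peak in stacked reads was computed from that step. The backgrounds were 3.35 and 3.52 reads. The number of reads per library was not used, and heights stand for the depth behind each value. No read counts were used and no model was fitted.

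Peaks of the replicates were joined into regions where they overlapped by at least 1 bp, and all peaks lay within the chromosomes of hg38. Regions within 1 kb of a GENCODE release 44 TSS were TSS regions, and other regions with a midpoint in an intron of the canonical transcript were intronic. Genes named are the 4 family members, genes with a TSS in a locus and a peak there in both replicates, and, of each gene list, those with no TSS peak in a replicate, the 3 highest and the 2 lowest, plus the 2 receptor tyrosine kinase genes nearest to each member. LTK, EPHB3, EPHA1, FLT4 and FGFR3 were named after their values were seen. The members and lists were chosen with earlier results of these data known. The alternatives tried were a minimum −log10 q of 10, a reciprocal overlap of 50%, no flank or 100 kb, TSS distances of 100 bp and 3 kb, other sets of TSSs, −log10 q as strength, whole regions inside introns and the omission of each replicate. Functions were tested on simulated peaks. Python 3.11.15, numpy 2.4.6, pandas 2.3.3, scipy 1.17.1 and matplotlib 3.10.9 were used. The other assays and models of the study were not analysed here, and 1 marker gene is not reported here.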

Additional observations from a re-analysis of the deposited data

How the results depend on the processing

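Over 73 alternative values of 12 results, 53 stayed within the tolerance and 20 moved. None reversed, but only the ratio of medians has a direction that could, since counts, shares and fold enrichments have none. The tolerance was a factor of 1.5 for counts and 1 SD between replicates for other values, so that a fall from 174 to 124 regions at a minimum −log10 q of 10 counted as within it. A TSS peak was present at 3 of the 4 genes under all alternatives run but a single TSS per gene, which gave 2, because the most 5′ TSS of ERBB3 lies at least 1931 bp from any peak, and the count of pathway genes was 42 or 43. EGFR had no TSS peak under any alternative run. The ratio of TSS to intronic medians stayed above 1 in all alternatives run, but its size depended on the definitions, and the cause was not tested. It was 5.06 at a minimum −log10 q of 10, 5.73 with no flank, 2.40 with a flank of 100 kb, 6.72 and 3.83 with TSS distances of 100 bp and 3 kb, 5.11 with only the TSSs of the ERBB gene itself, 7.79 with a single TSS per gene and 9.31 with −log10 q as strength. With the peaks of a single replicate, found again or not, it ranged from 2.53 to 3.30. It was 4.39 with the exons of all transcripts and 4.08 with exonic regions added to the intronic ones, alternatives chosen after seeing the data. The number of regions was 108 with no flank, against 174. The share of peaks found again, 86.6% ± 1.63 over both replicates, was 90.0% at that minimum −log10 q and 82.4% with a reciprocal overlap of 50%. The other 7 values that moved were counts of regions at single loci under other flanks and the TSS values of ERBB2 with a single TSS (67.9) and of ERBB4 within 3 kb (39.6). No paired analysis was possible because the series has 1 group. Of the limits, 2 replicates give an SD with 1 degree of freedom, a peak list is silent on sites below the threshold of the caller, and copy number at these loci was not analysed here.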
